A study of Mus musculus with 2 samples.

Results

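The Ldb1 complex is built from a few protein families, and 10 of their genes are described here by where they lie among chromosome domain boundaries. They were taken as a list of names, chosen with earlier results of these data known. The names were looked up by symbol among the 21755 protein-coding genes of GENCODE release M21 on the 20 chromosomes covered (build GRCm38). All 10 were found. The list holds the LIM domain-binding cofactors Ldb1 and Ldb2, the LIM-homeodomain factor Lhx2, the single-stranded DNA-binding proteins Ssbp2, Ssbp3 and Ssbp4, and the LIM-only proteins Lmo1, Lmo2, Lmo3 and Lmo4.

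LDB proteins dimerise and hold transcription factors with LIM domains together, so that distant regulatory sites can be brought close to each other. SSBP proteins bind LDB proteins and protect them from degradation, while LMO proteins have LIM domains but no DNA-binding domain and can compete with LIM-homeodomain factors for LDB. In olfactory sensory neurons, Lhx2 and Ebf factors bind the enhancers of olfactory receptor genes, and Ldb1 is recruited there through Lhx2.

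In situ Hi-C ligates pieces of DNA that are close together in fixed nuclei and reads out the joined pairs. The 1 group was mature olfactory sensory neurons, sorted by fluorescence from the olfactory epithelium of adults of both sexes, with 2 biological replicates of 1000000 cells each. The mice carried a conditional Ldb1 knockout with Cre under the Omp promoter, which is active in mature olfactory neurons and so limits the deletion to that stage. The strain is not specified in the labels, and no library without the knockout was analysed here. The measurement is of DNA contacts, so neither the identity of the cells nor the loss of Ldb1 could be checked against RNA markers.

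The boundary list was made by the authors from the contacts of both replicates together. Its 7610 bins are 5 kb long and carry a strength, which is the authors' score (0.2 to 4.13, median 0.538), and a class. There are 4022 strong bins (score 0.5 or more) and 3588 weak ones. A boundary is a position that few contacts cross. A domain here is the interval between the neighbouring boundary bins on either side of a gene's transcription start site (TSS). Because there is 1 pooled list, the values have no replicate error and no test between groups exists. They are set beside the same values for all protein-coding genes, as a description.

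CTCF is the protein that halts cohesin at many boundaries, and its consensus sequence was found within 10 kb of a flanking bin for Ldb1, Lmo1 and Lmo4 only. The matches are printed 5′ to 3′ on the strand that reads as the consensus, in capitals, with 10 bases on each side, because they are the only ones at the 20 flanks. The printed stretches, matches with their flanking bases, lie for Ldb1 at chr19:45737375-45737406 (plus strand), chr19:45746524-45746555 (plus) and chr19:45747667-45747698 (minus). That of Lmo1 lies at chr7:109072934-109072965 (plus) and that of Lmo4 at chr3:144242217-144242248 (minus).
Ldb1 left flank, first match: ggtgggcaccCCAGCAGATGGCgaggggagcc
Ldb1 left flank, second match: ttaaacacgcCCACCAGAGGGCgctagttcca
Ldb1 left flank, last match: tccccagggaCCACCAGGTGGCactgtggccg
Lmo1 left flank: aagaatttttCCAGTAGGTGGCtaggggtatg
Lmo4 right flank: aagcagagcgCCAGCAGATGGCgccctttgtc

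Of these 5 matches, 4 read into the domain of the gene, a share that was not computed for the flanks of other genes. The exception is the last Ldb1 match, which reads out of it and shares the boundary bin with a match of the opposite direction. The first Ldb1 match lies 7.61 kb outside its bin, the Lmo1 match 2.05 kb outside and the Lmo4 match 7.76 kb from its bin on the inner side. No gene of the list had the consensus at both flanks (0 of 10), against 8.92% of all protein-coding genes with a boundary on each side (21551 genes). At either flank it was present for 3 of 10, against 46.5%. With the window at 25 kb, Lmo3 had a match at both flanks (1 of 10, against 21.1%). Inside the domains the number of matches ran from 0 (Ldb2 and Ssbp4) to 4 (Lhx2 and Ssbp3). A match is a sequence and not a measurement of CTCF.

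The promoters that lie within a boundary bin are those of Ssbp2 and Ssbp4, shown here from RefSeq (GRCm38.p6), 5′ to 3′ in the direction of transcription and without annotated UTR. RefSeq starts differ from the GENCODE TSSs used for distances by less than 1 kb in these genes. The stretches are chr13:91460847-91461049 (plus) and chr8:70608315-70608564 (minus). Capitals mark a match to CCCNNGGG, the core of the Ebf site.
Ssbp2: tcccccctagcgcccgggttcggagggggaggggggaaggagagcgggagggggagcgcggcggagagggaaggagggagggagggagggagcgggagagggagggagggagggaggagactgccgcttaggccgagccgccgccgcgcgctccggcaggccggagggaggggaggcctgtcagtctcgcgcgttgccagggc
Ssbp4: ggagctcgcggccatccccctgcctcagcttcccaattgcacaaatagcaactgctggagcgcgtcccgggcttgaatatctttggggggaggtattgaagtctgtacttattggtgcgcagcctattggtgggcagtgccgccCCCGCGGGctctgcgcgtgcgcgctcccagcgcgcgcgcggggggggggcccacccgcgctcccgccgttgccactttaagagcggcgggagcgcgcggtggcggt

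The promoter table held 8 of the 10 genes, all but Ldb2 and Lmo2, in windows from 250 bases before to 50 after the start. On both strands, CCCNNGGG was found in the Ssbp4 window alone of these 8, and in 13.7% of all 32851 windows. TAATTA, the core that LIM-homeodomain proteins bind, was found in the Lmo1 window alone, and in 5.29% of all windows. Neither CAGCTG, an E-box (16.3% of all windows), nor the CTCF consensus (0.557%) was found in any of the 8. The matches found do not overlap each other. The windows were GC-rich: 7 of 8 held between 66.3% (Lmo1) and 81.3% (Lmo4) G or C, against a median of 52.7%, and Lmo3 held 50%. The ratio of observed to expected CpG was highest for Ldb1 (1.19) and lowest for Lmo3 (0.389, beside a median of 0.384 over all windows).

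**Figure D1:**
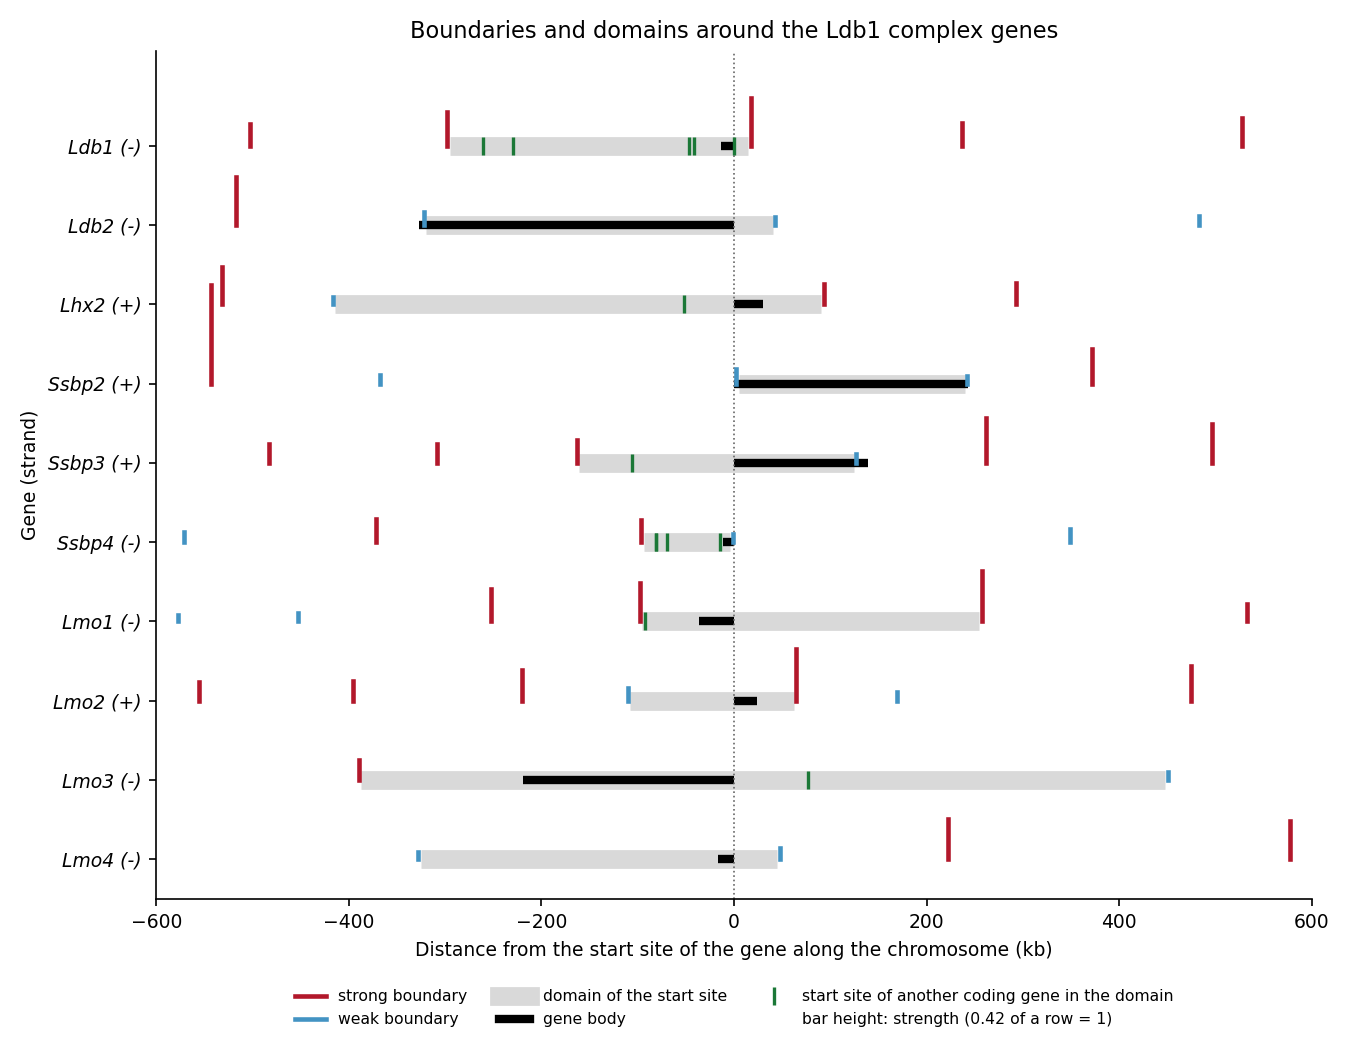
Boundary bins (vertical bars, height proportional to strength, red strong and blue weak) within 600 kb of the TSS of each of the 10 genes, with distance in kb along the chromosome on the horizontal axis. Gray bars are the domains, from 90 kb (Ssbp4) to 835 kb (Lmo3), black bars the gene bodies and green ticks the start sites of other protein-coding genes in the domain.

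Ldb1, the gene deleted in these neurons, stood at the edge of a domain with 2 strong boundaries. The gene spans 13.6 kb on the minus strand of chromosome 19 (46031570 to 46045214). Its left boundary (45745001 to 45750000) had a strength of 1.03 and overlapped an exon of Npm3, a nucleoplasmin-family gene. Its right boundary (46060001 to 46065000) had a strength of 1.43, at percentile 90.3 of all boundaries. The domain between them was 310 kb long, and the Ldb1 TSS lay 14.8 kb from its right end and 295 kb from its left end.

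The Ldb1 domain held 5 other protein-coding genes, the highest number of the 10, beside 4 in the shorter domain of Ssbp4. With noncoding genes included it held 8, fewer than those of Ldb2 (11) and Lhx2 (9). Pprc1, a coactivator related to PGC-1, starts on the opposite strand with its TSS 0.328 kb from that of Ldb1, and its body runs on across the right boundary. The others were Hps6 (TSS 41.7 kb away), which acts in the making of lysosome-related organelles, Armh3 (46.7 kb), the potassium channel-interacting gene Kcnip2 (229 kb) and Mgea5 (261 kb), which encodes the enzyme that removes O-GlcNAc. All 5 have their TSS to the left of the Ldb1 TSS.

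Ldb2, the paralog of Ldb1, was placed differently. The gene is long (328 kb, chromosome 5, 44472132 to 44799680, minus strand), and both of its flanking boundaries were weak. The right one (44840001 to 44845000, strength 0.259) lay outside protein-coding genes, 40.3 kb upstream of the TSS. The left one (44475001 to 44480000, 0.409) overlapped exons at the 3′ end of Ldb2 itself, 2.87 kb short of the gene's end. The gene body covered 88.8% of the 360 kb domain, which held no other protein-coding gene but 11 genes of long noncoding or unclassified transcripts.

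Lhx2, through which Ldb1 reaches olfactory receptor enhancers, lay in a domain of 505 kb on chromosome 2. The gene (38339281 to 38369733, plus strand, 30.5 kb) covered 6.03% of it. The right boundary (38430001 to 38435000) was strong at 0.626 and lay 90.7 kb from the TSS. The left boundary (37920001 to 37925000) was weak at 0.223, percentile 6.9 of all boundaries, and lay 414 kb away in an intron of Dennd1a. Dennd1a, an activator of the trafficking GTPase Rab35, was the only other protein-coding gene with its TSS in the domain, 51.9 kb from that of Lhx2. Its body crosses the weak boundary.

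The SSBP genes all held a weak boundary within the gene body. Ssbp2 filled its domain: the gene runs from 91460283 to 91703429 on the plus strand of chromosome 13 (243 kb), and a boundary bin sat at each end. The bin with the TSS (91460001 to 91465000) had a strength of 0.451, and the bin with the 3′ end (91700001 to 91705000) had 0.218. The 235 kb between them lay wholly within Ssbp2 and held the TSS of no other annotated gene of any kind. On the other side of the TSS bin lay a domain of 365 kb with 1 protein-coding TSS, that of the autophagy gene Atg10.

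Ssbp3 (139 kb, chromosome 4, 106910701 to 107049694, plus strand) held a bin of strength 0.256 (107035001 to 107040000), which overlapped exons in the last part of the gene, 9.69 kb short of its end. Its left boundary (106745001 to 106750000) was strong at 0.688 and lay 161 kb upstream of the TSS, in exons of Acot11 and Fam151a. The domain was 285 kb long, and its only other protein-coding TSS was that of Acot11, an acyl-CoA thioesterase gene, 106 kb away. Of the 10 domains it alone held RefSeq functional elements, 2 enhancers. RefSeq held 1015 enhancers in total, and the share of all domains with one was not computed.

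Ssbp4 is a short gene (11.4 kb, chromosome 8, 70597490 to 70608872, minus strand) with its TSS in a bin of strength 0.254 (70605001 to 70610000). On the side of the gene body the domain was 90 kb long (percentile 0.64 among the domains of all genes). It ended at a strong boundary (70510001 to 70515000, 0.67). It held 4 other protein-coding genes: Isyna1 (TSS 14.5 kb away), which makes inositol phosphate, the elongation factor gene Ell (69.4 kb), Kxd1 (80.9 kb) and the chaperone gene Fkbp8 (81.1 kb). On the far side of the TSS bin lay a gene-rich domain of 345 kb with 19 protein-coding start sites.

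A boundary bin in the gene body was thus found in 4 of 10 genes (Ldb2, Ssbp2, Ssbp3 and Ssbp4), against 16.2% of all protein-coding genes. Long genes hold one more often: 68.0% of the 998 genes of 200 kb or more did, as did 9.16% of the 14120 genes under 30 kb. Between these, the share was 20.1% for genes of 30 to 100 kb and 35.4% for genes of 100 to 200 kb, the class of Ssbp3. Of the 3 genes of the list at 200 kb or more, Ldb2 and Ssbp2 held one and Lmo3 (219 kb) did not. The same 4 genes had their 3′ end within 10 kb of a boundary (4 of 10, against 13.2% of all genes), a feature counted after the positions had been seen. For genes of 200 kb or more that share was 16.3%. Ssbp4 is short, and its bin, 7.51 kb from the 3′ end, is the one that covers its TSS. With strengths of at least 0.3 Ldb2 alone was counted for the 3′ end (1 of 10, against 11.3%). At that setting Ldb2 and Ssbp2 held a boundary in the gene body (2 of 10, against 13.7%). With the 3′ end inside the bin, Ssbp2 alone was counted (1 of 10, against 2.63%). All the bins concerned are weak, so with strong boundaries alone both counts were 0 of 10, against 10.3% and 8.60%. At the start site, 2 of 10 genes (Ssbp2 and Ssbp4) lay within 10 kb of a boundary, against 14.3% of all genes, and Ldb1 at 14.8 kb was the next. Both start sites lie inside the bin itself, as do those of 3.86% of all genes. With strong boundaries alone no start site lay within 10 kb of one (0 of 10, against 9.30%). With strengths of at least 0.3 that of Ssbp2 alone did (1 of 10, against 12.3%).

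**Figure D2:**
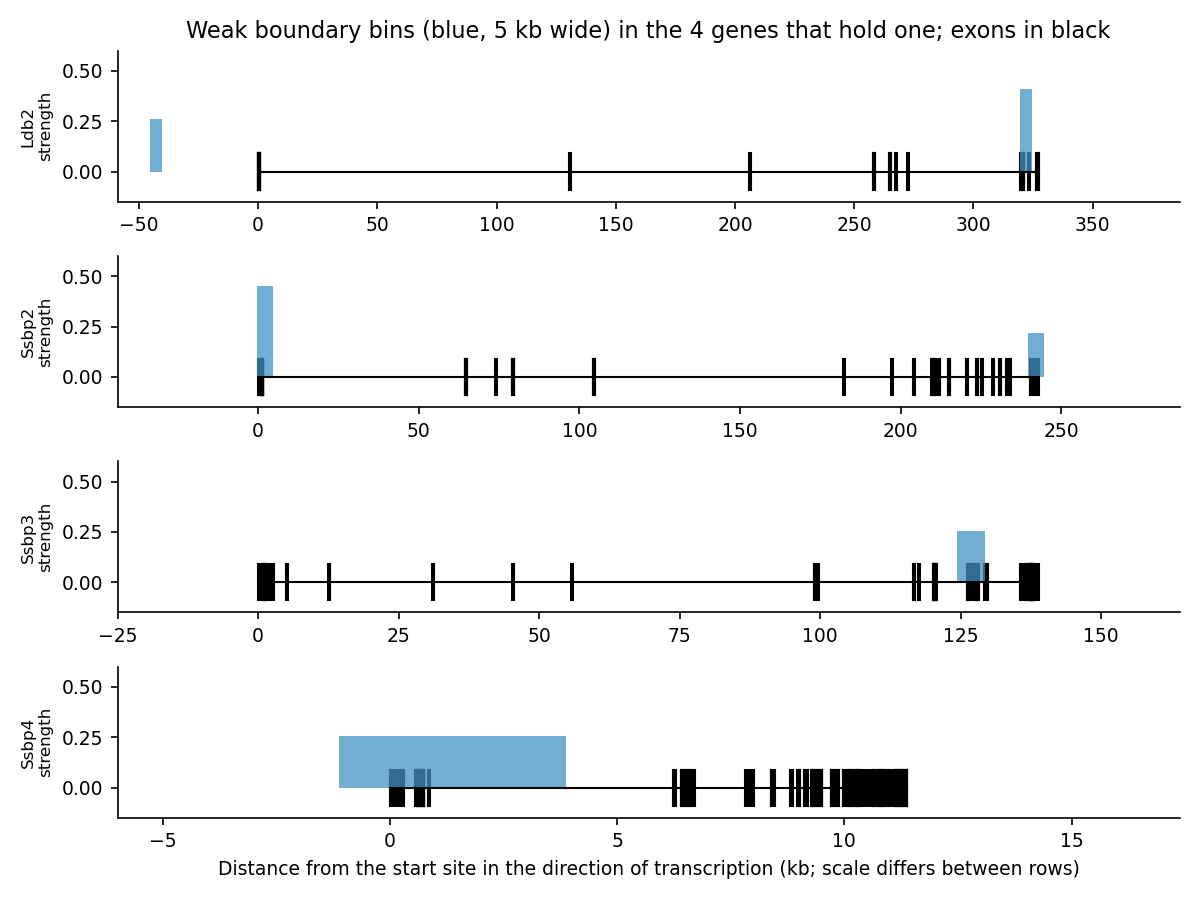
The 4 genes that hold a boundary bin, drawn from the TSS in the direction of transcription (horizontal axis in kb, scale differing between rows), with exons in black and boundary bins as blue bars whose height is the strength. In Ldb2, Ssbp2 and Ssbp3 a weak bin stands near the 3′ end (0.409, 0.218 and 0.256), and in Ssbp2 and Ssbp4 one covers the TSS (0.451 and 0.254).

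The LMO genes encode adaptors that bridge LDB to other transcription factors, and their 4 domains ranged from 170 to 835 kb. Lmo1 (chromosome 7, 109138572 to 109175207, minus strand, 36.6 kb) was the only gene of the list besides Ldb1 with 2 strong flanks. Its left boundary (109075001 to 109080000, strength 1.14) lay 95.2 kb from the TSS in an intron of Ric3. Its right boundary (109430001 to 109435000, 1.53) lay 255 kb away in an intron of Stk33. The 350 kb domain held 1 other protein-coding TSS, that of Ric3, a chaperone of nicotinic receptors, 91.9 kb from that of Lmo1.

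Lmo2, which joins LDB1 to blood cell factors, had the strongest flank of the list on its right (1.54; chromosome 2, 104020001 to 104025000), 62.0 kb from the TSS. That bin lay in an intron of 4931422A03Rik. The left flank was weak (0.381; 103845001 to 103850000), 108 kb from the TSS. The gene (103957986 to 103981878, plus strand, 23.9 kb) was the only protein-coding one with its TSS in the 170 kb domain.

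Lmo3 lay in the longest domain, 835 kb on chromosome 6, at percentile 93.3 among the domains of all genes. Its TSS (138581968, minus strand) was 387 kb from the strong left boundary (0.613; 138190001 to 138195000) and 448 kb from the weak right one (0.231; 139030001 to 139035000). The distance to the nearest boundary was at percentile 97.4 of all genes. The only other protein-coding TSS was that of Igbp1b, 76.6 kb away, and both flanks lay outside protein-coding genes.

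Lmo4 had the lowest pair of flanks, weak at 0.207 on the left (chromosome 3, 143875001 to 143880000) and 0.345 on the right (144250001 to 144255000). The gene (144188530 to 144205220, minus strand, 16.7 kb) covered 4.51% of a 370 kb domain in which it was the only protein-coding gene. Its TSS was 44.8 kb from the right boundary and 325 kb from the left one.

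**Figure D3:**
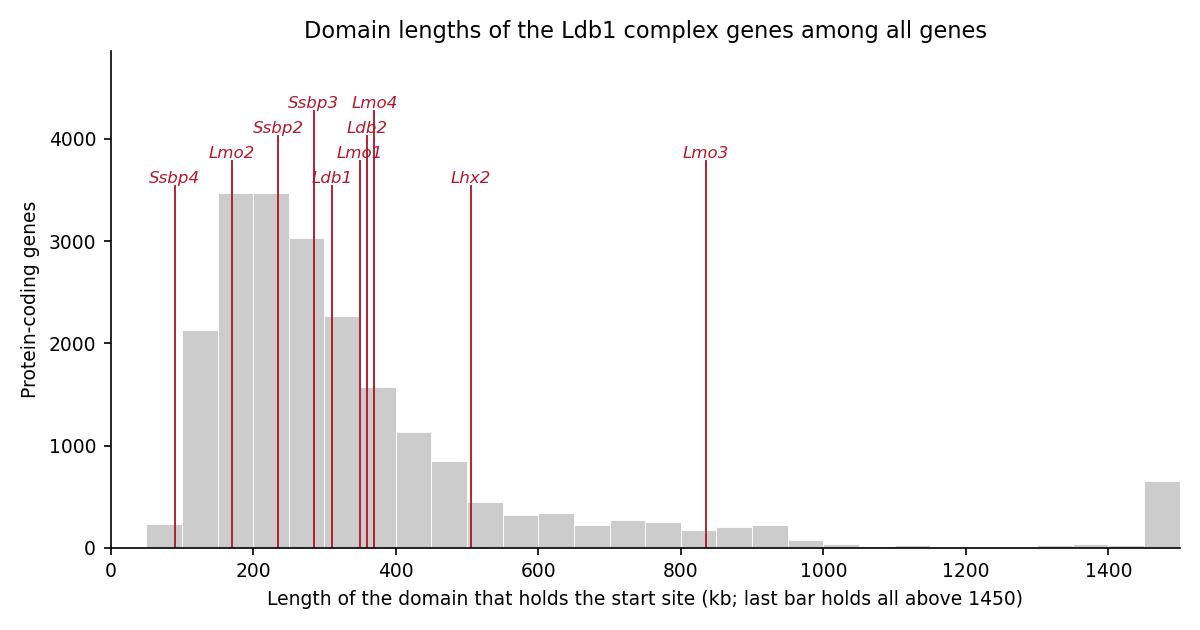
Length of the domain that holds the TSS for all 21551 protein-coding genes with a boundary on each side (gray bars, number of genes per 50 kb), with the 10 genes marked in red. Lmo1, Ldb2 and Lmo4 lie within 20 kb of each other (350, 360 and 370 kb), while Ssbp4 (90 kb) and Lmo3 (835 kb) stand at the ends.

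Domain lengths of the list were like those of other genes, with a median of 330 kb beside 270 kb over all genes (interquartile range 190 to 395 kb). In order, they were those of Ssbp4, Lmo2, Ssbp2, Ssbp3, Ldb1, Lmo1, Ldb2, Lmo4, Lhx2 and Lmo3. Bins of 5 kb set the resolution, so Lmo1, Ldb2 and Lmo4 are separated by few bins. The median distance from TSS to nearest boundary was 53.4 kb, beside 56.6 kb over all genes. With strong boundaries alone it was 128 kb, beside 99.5 kb over genes with a boundary on each side. With strengths of at least 0.3 it was 92.3 kb beside 68.0 kb.

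Few other genes shared these domains. At most 1 other protein-coding TSS was present in 8 of 10 domains, all but those of Ldb1 and Ssbp4, against 20.6% of all genes, and the median was 1 beside 5. This count was chosen after the values were seen. It was also common among related factors: 8 of 11 other LIM-homeodomain genes (72.7%) and 3 of 4 Ebf genes had at most 1, with a median of 0 in each list. With strong boundaries alone it was 4 of 10 (Ldb2, Lhx2, Lmo1 and Lmo4), against 10.4%. When every annotated gene was counted, noncoding ones included, Ssbp2 alone had at most 1 (1 of 10, against 3.79%), and the median was 4 beside 9.

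The boundaries around the list were often weak. Of the 20 flanks 11 were weak (55.0%), against 38.3% of the flanks of all genes, and the median strength was 0.43 beside 0.64. Some of these weak flanks are the bins in the gene bodies already counted above. They are the left flank of Ldb2, both flanks of Ssbp2 and the right flanks of Ssbp3 and Ssbp4. The weak flank nearest the split was the left one of Ssbp2 (0.451) and the strong flank nearest it the left one of Lmo3 (0.613). Both flanks were strong for 2 of 10 genes (Ldb1 and Lmo1), against 37.1% of all genes. Both were weak for 3 of 10 (Ldb2, Ssbp2 and Lmo4), against 13.7%. The remaining 5 had 1 of each. When only strengths of at least 0.3 were used, 4 genes had 2 strong flanks (52.9% of all genes) and Lmo4 alone had 2 weak ones (6.57%).

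**Figure D4:**
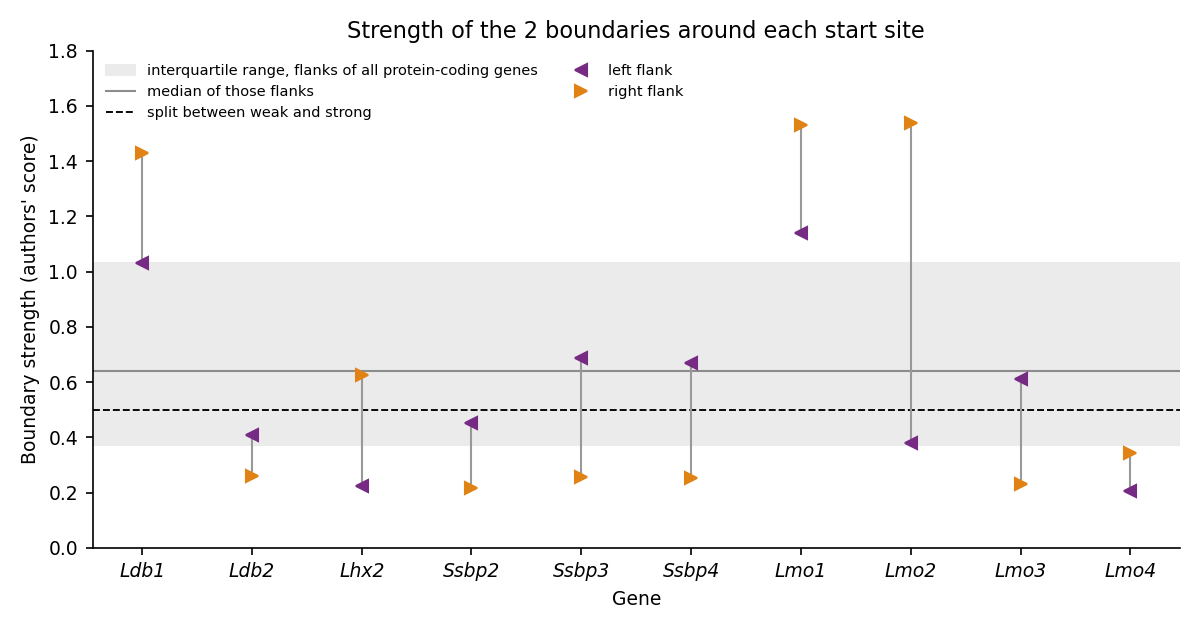
Strength of the left and right boundary of each domain (triangles, authors' score), with the split between weak and strong at 0.5 (dashed), and the median (0.64) and interquartile range (0.374 to 1.03) of the flanks of all protein-coding genes. Ldb1 and Lmo1 have both flanks above the range or at its top, and Ldb2, Ssbp2 and Lmo4 have both below the split.

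Taking strong boundaries alone left the domains of Ldb1 (310 kb) and Lmo1 (350 kb) as they were and joined the other 8 to their neighbours. The domain of Lmo2 became 280 kb, that of Ssbp3 420 kb and that of Lhx2 620 kb, with 2, 4 and 1 other protein-coding TSSs. Those of Ssbp4 and Ssbp2 became 850 and 910 kb, with 25 and 4. For Ldb2 it became 1135 kb and for Lmo4 1485 kb, each still without another protein-coding TSS, and for Lmo3 2530 kb, with 7. The median was 735 kb beside 465 kb over all genes.

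The same values were taken for 29 genes of factors that work with these proteins. Of 11 other LIM-homeodomain genes, which encode neural and endocrine developmental factors, 7 had 2 strong flanks and 1 had 2 weak ones, with a median domain of 295 kb and none with a boundary in the gene body. Of the 4 Ebf genes, 2 had 2 strong flanks and none had 2 weak ones, and 2 held a boundary in the gene body. The median length of the Ebf genes was 159 kb, and 35.4% of all genes of 100 to 200 kb held a boundary. Of 8 factors of the blood complex around LMO2 and LDB1, 4 had 2 strong flanks and 2 had 2 weak ones. Of 6 regulators and Wnt enhanceosome partners, 4 had 2 strong flanks and none had 2 weak ones. Over all 29, 17 had 2 strong flanks (58.6%, against 37.1% of all genes) and 3 had 2 weak ones (10.3%, against 13.7%). A boundary in the gene body was held by 3 of the 29 (10.3%, against 16.2%). No test was made between these lists and the Ldb1 complex genes.

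Of the 29, Tcf4 alone (3.45%, against 14.3% of all genes) had its TSS within 10 kb of a boundary, inside a strong bin (0.661) of chromosome 18. Tcf4 encodes an E protein, a basic helix-loop-helix factor. With the median transcript start in place of the 5′ end, no gene of the blood complex list lay there (0 of 8). At that setting 1 of 11 other LIM-homeodomain genes did, and 14.1% of all genes. Lhx1 and Ebf3 lay just outside the window, at 10.5 and 10.6 kb from strong boundaries (0.628 and 1.89). The shortest domains were those of Lhx3, a pituitary factor, and Ebf3, at 125 kb each. The longest was that of Lhx9 (695 kb, flanks 0.542 and 1.59), with 6 other protein-coding genes.

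**Figure D5:**
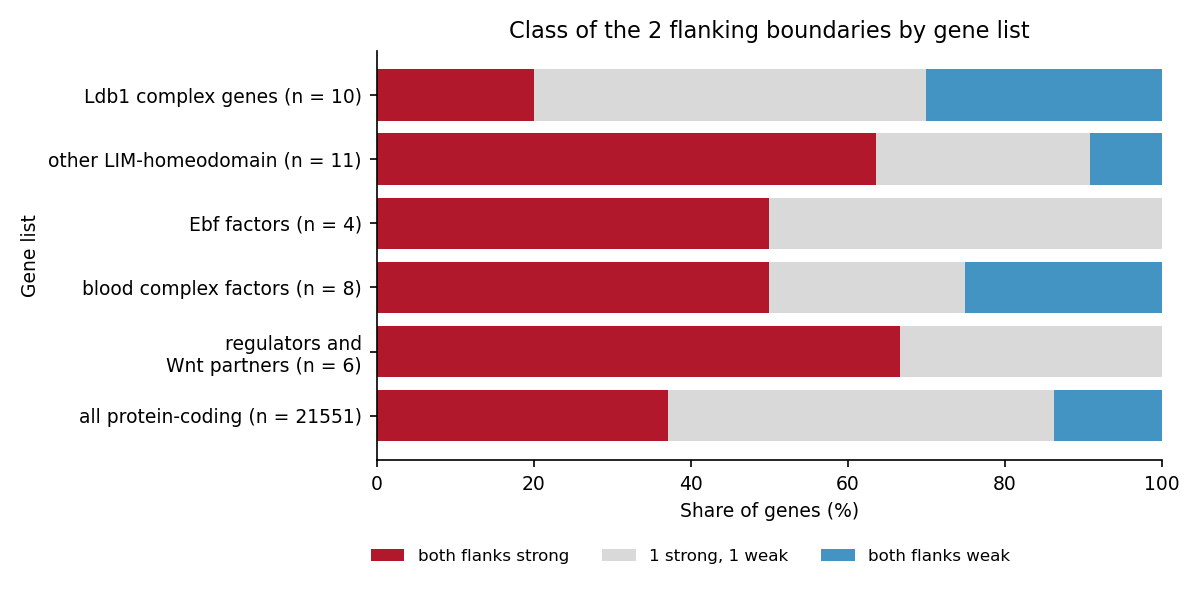
Share of genes (horizontal axis, %) whose 2 flanking boundaries are both strong (red), 1 of each class (gray) or both weak (blue), for the Ldb1 complex genes, 4 lists of partner genes and all protein-coding genes. Both flanks were strong for 20% of the Ldb1 complex genes, 63.6% of other LIM-homeodomain genes and 37.1% of all genes.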

How the data were processed

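In situ Hi-C was done on 2 replicates of 1 group, after fixation in 1% formaldehyde and DpnII digestion. Per the labels' design text, the authors merged both replicates' contact pairs, built 1 matrix on GRCm38, computed diamond insulation and called boundaries. The caller and its settings were not given in the sources used here. Each deposited strength is a score of a 5 kb bin, computed by the authors, and the depth behind it is unknown. Strong bins start at 0.5.

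TSSs are the 5′ ends of GENCODE M21 protein-coding genes. Distances run to the nearer bin edge and domains from bin to bin. A TSS inside a bin takes the domain on the gene body's side, and genes lacking a boundary on a side have no domain. CTCF consensus matches were searched on both strands of the GRCm38 sequence (12728 matches). The steps were tested on simulated positions, with every TSS between bins, no other gene in any domain and all consensus matches on the plus strand. The rule for a TSS inside a bin and the counting of other genes present were not tested in this way.

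The members and lists were chosen with earlier results of these data known. Named genes are all 10 members, the other protein-coding genes of their domains and at their flanks, and partner genes at a boundary or with the shortest or longest domain, plus Lhx1 and Ebf3, added after their values were seen. No statistical test was made. Alternatives changed the boundaries used, the start site, the window, the repeat mask, the length and the genes counted. Python 3.11.15, numpy 2.4.6, pandas 2.3.3, pysam 0.24.0 and matplotlib 3.10.9 were used.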

Additional observations from a re-analysis of the deposited data

How the results depend on the processing

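No paired analysis was possible because all libraries belong to 1 group. The boundary list pools both replicates, so neither could be omitted. Counts of 3′ ends, of domains with at most 1 other gene and of 2 weak flanks were chosen after seeing the data. The share of weak flanks and the CTCF consensus at either flank were not planned beforehand, and no alternatives were run for them. Flank classes have no value for strong boundaries alone, since all flanks are then strong. Dropping boundaries lengthens domains by construction; the cause of other shifts was not tested. With strong boundaries alone, no gene had its TSS (0), its body (0) or its 3′ end (0) at a boundary, the median domain was 735 kb, the median distance 128 kb and the median number of other protein-coding genes 3, and 4 domains held at most 1. With strengths of at least 0.3, 1 gene had its TSS and 1 its 3′ end at a boundary, 2 held one, 4 had 2 strong flanks and 1 had 2 weak ones, and the medians were 430 kb and 92.3 kb. The median transcript start gave a median distance of 48.5 kb and left all 10 domains as they were. In the bin only, 1 gene had its 3′ end at a boundary; within 25 kb, 1 had the CTCF consensus at both flanks. Bin midpoints gave medians of 335 and 55.9 kb. Counting all annotated genes gave a median of 4 and 1 domain with at most 1. The other 20 of 41 comparisons of these counts and medians stayed equal or, for counts, within 1.5 times. Some of them could not change. The count of gene bodies does not use the start site, and the CTCF count of 0 could not fall with a narrower window or the repeat mask.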
